A study of Mus musculus with 8 samples.

Results

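Lens fibre genes other than the crystallins were examined in retinal pigment epithelium (RPE) eyecups of mice with and without the ciliary gene Bbs8. The 9 genes were taken by symbol: Mip, Lim2, Bfsp1, Bfsp2, Gja3, Lgsn, Hsf4, Dnase2b and Prox1. All 9 had a row among the 31053 gene identifiers of the count files, and 6 of them passed the filter on low counts that left 13813 genes for testing. Expression had been measured by QuantSeq 3′ mRNA sequencing, in which reads come from the 3′ end of polyadenylated transcripts, in 8 libraries of animals at postnatal day 11 (P11). The control libraries came from 4 wild-type animals (Bbs8+/+), and the knockout libraries from 4 littermates homozygous for the Bbs8 deletion (Bbs8-/-), all recorded under the strain name C57/Bl6. The genotype is that of the whole animal and not of the RPE alone. Cornea, lens, retina and optic nerve were dissected away by the authors before the remaining eyecup was homogenised, so that RPE, choroid and sclera were lysed together and each library is a bulk sample.

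The lens is built of elongated fibre cells that fill with crystallins and then lose their nuclei and organelles. Alongside the crystallins, fibre cells make a small set of other proteins that are hardly made elsewhere in the body: a water channel, membrane and gap junction proteins, and the 2 subunits of the beaded filament, a form of intermediate filament known from lens fibres. Transcription factors such as Hsf4 and Prox1 act in fibre cell maturation, and a lysosomal nuclease removes the DNA of the degraded nuclei. The comparison asks whether these genes moved with genotype in tissue from which the lens had been removed, and how they stood beside the crystallins in the same libraries.

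Promoter sequences are shown for Mip, the only tested fibre gene for which both a TGCTGA and a TATAAA match were found, for Bfsp1, the member with the smallest p-value, and for Cryaa, a crystallin whose control level was like that of Mip. They are RefSeq windows from 250 bases before to 50 bases after a transcription start, on GRCm38.p6, each written along the strand of its gene. Mip lies on the plus strand (chr10:128225560-128225859), Bfsp1 on the minus strand (chr2:143863124-143863423) and Cryaa on the plus strand (chr17:31677681-31677980). Capitals mark TGCTGA, one arm of the palindromic element bound by large Maf factors, which reads TCAGCA where it lies on the opposite strand, and the TATA box letters TATAAA.
Mip: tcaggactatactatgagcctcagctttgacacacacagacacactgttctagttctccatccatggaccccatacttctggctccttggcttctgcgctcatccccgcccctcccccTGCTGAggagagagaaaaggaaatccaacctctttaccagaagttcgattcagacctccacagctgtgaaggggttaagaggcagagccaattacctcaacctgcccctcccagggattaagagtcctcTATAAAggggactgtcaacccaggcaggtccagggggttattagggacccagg
Bfsp1: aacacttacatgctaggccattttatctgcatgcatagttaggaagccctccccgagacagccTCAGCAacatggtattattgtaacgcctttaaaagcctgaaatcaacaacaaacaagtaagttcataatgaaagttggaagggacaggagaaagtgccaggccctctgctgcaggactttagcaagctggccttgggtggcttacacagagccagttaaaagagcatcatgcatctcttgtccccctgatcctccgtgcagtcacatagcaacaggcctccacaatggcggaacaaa
Cryaa: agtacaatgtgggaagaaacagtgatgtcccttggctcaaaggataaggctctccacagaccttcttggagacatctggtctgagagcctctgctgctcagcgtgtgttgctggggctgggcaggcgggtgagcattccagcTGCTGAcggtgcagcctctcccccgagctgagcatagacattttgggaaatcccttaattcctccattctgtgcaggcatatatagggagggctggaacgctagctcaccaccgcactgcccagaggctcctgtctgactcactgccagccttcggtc
In the Mip window TGCTGA ran from base -132 to -127 and TATAAA from base -3 to 3 relative to the RefSeq start, which lies upstream of the start in the annotation used for positions. TCAGCA ran from base -187 to -182 in Bfsp1, and TGCTGA from base -108 to -103 in Cryaa. On either strand, TGCTGA was found for 4 of the 8 fibre genes that matched a promoter entry (Mip, Lim2, Bfsp1 and Lgsn) and for 10 of 15 crystallins. It was also present in 19.5% of all 32851 promoter windows of this length. TATAAA was found for 4 of the 8 fibre genes and 4 of the 15 crystallins, against 13.6% of all windows. The heat shock element core GAANNTTC, a palindrome read on both strands, was found for 1 fibre gene (Dnase2b) and 0 crystallins, against 7.86% of all windows. The 8 fibre genes had 10 windows and counted if any window matched, whereas the shares over all windows count single windows. These matches are a description of the letters only.

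The libraries held 1636725 to 2884983 gene counts each, so that a floor of 3 counts stood for 1.04 to 1.83 CPM (counts scaled to library size) when divided by these raw totals. The filter on low counts also used raw totals. All other CPM values use totals adjusted by TMM, which differ slightly from the raw ones. The targeted gene, Ttc8 in the annotation, ran from 14.7 to 21.7 CPM in control and from 2.30 to 9.72 CPM in knockout libraries, with a log2 fold change of -1.95 (SE 0.317, edgeR FDR 2.75e-06). Across all tested genes, 152 (1.1%) were called higher and 157 (1.14%) lower in Bbs8-/- at FDR 0.05, the median log2 fold change was -0.0041, and all knockout libraries lay on one side of all control libraries for 1019 genes (7.38%). The 7 listed RPE marker genes summed to 16500 to 18030 CPM per library, most of it Ttr at a mean of 10960 CPM in control and 11680 CPM in knockout libraries, and 0 of the 7 were called. Rpe65 was at 2002 and 1827 CPM, while Best1 was near the floor, with 7 counts in all controls and 18 in all knockouts.

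None of the 6 tested fibre genes was called by edgeR, where 1.1% of all tested genes were called higher and 1.14% lower. A single one of the 6, Bfsp1, had an unadjusted p under 0.05, as did 1792 of all 13813 tested genes, and DESeq2 also called 0 of the 6. Of the 6 estimates 5 were above 0, as were 6834 of all 13813 tested genes, and the median log2 fold change of the 6 was 0.30. The 3 remaining genes, Gja3, Lgsn and Dnase2b, had too few counts to pass the filter. In the alternative fit without a filter on low counts their edgeR FDRs were 0.558, 0.939 and 0.715. In bulk tissue, fewer cells of a type and less RNA per cell cannot be told apart, and this holds for each level given here.

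**Figure D1:**
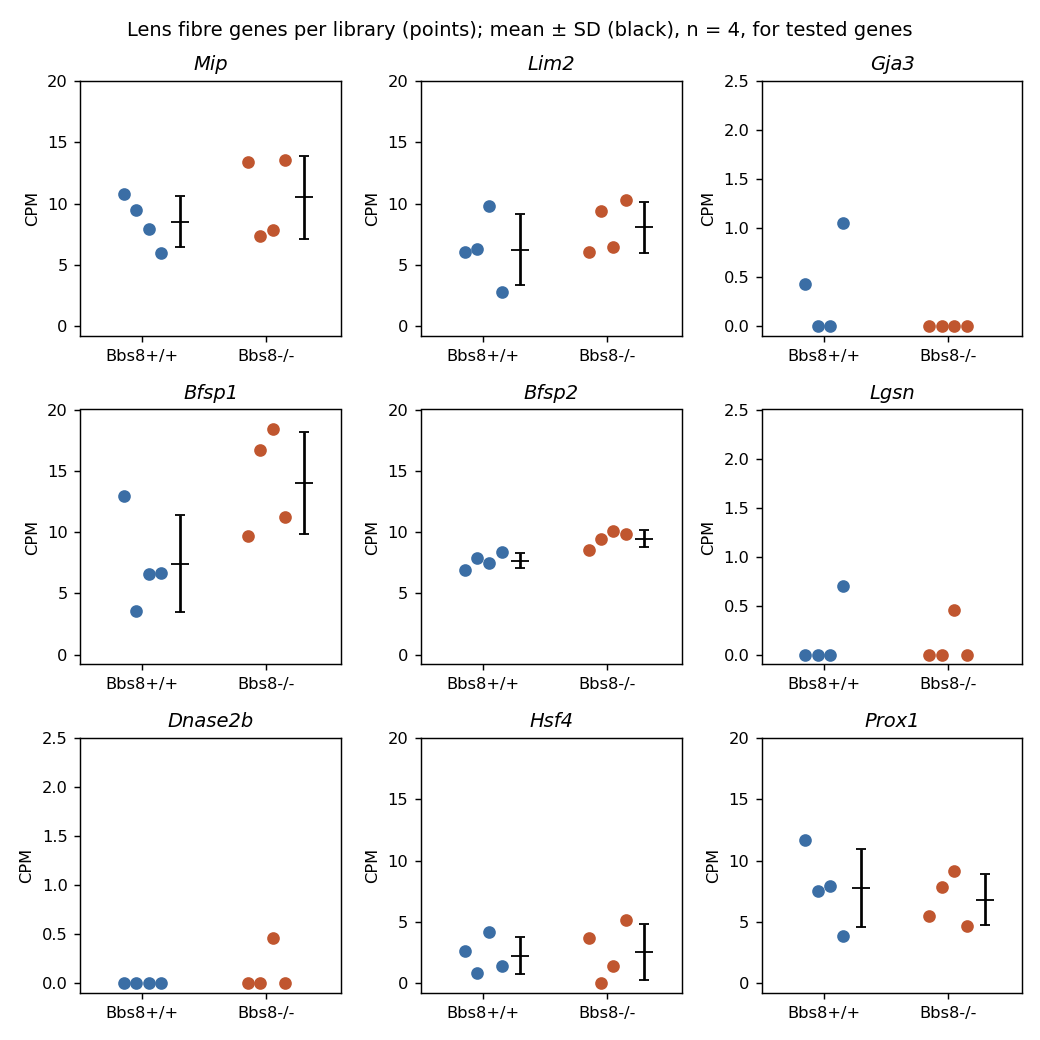
Normalised level (CPM, vertical axis) of the 9 lens fibre genes in each of the 4 Bbs8+/+ (blue) and 4 Bbs8-/- (orange) libraries, with mean ± SD beside the points for the 6 tested genes. The groups overlap for every tested gene except Bfsp2, and the panels of Gja3, Lgsn and Dnase2b, drawn on a smaller scale, hold no point above 1.05 CPM.

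Among the membrane and junction genes, Mip encodes the major intrinsic protein of the fibre cell, aquaporin 0. It lies on chromosome 10 from 128225838 to 128231812 (mm10, plus strand). Mip was read 25, 24, 17 and 17 times in Bbs8+/+ replicates 1 to 4 and 22, 14, 17 and 29 times in Bbs8-/- replicates 1 to 4. Scaled to library size these were 10.8, 9.45, 7.95 and 5.94 CPM in Bbs8+/+ against 13.4, 7.32, 7.81 and 13.6 CPM in Bbs8-/-. Bbs8-/- replicates 1 and 4 stood above every control library, whereas replicates 2 and 3 lay within the control range. The means were 8.53 ± 2.08 and 10.5 ± 3.41 CPM (SD, n = 4 each), and the log2 fold change of 0.30 (SE 0.321, 95% interval -0.34 to 0.94) did not pass the test (edgeR FDR 0.776). The last 300 exonic bases of Mip lie entirely under exons of Gm26847 on the opposite strand, which itself had 11 counts in Bbs8+/+ and 24 in Bbs8-/-. Since no source used here gives the strand setting of the counter, reads of this pair could not be told apart with certainty.

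Lim2 encodes an integral membrane protein of fibre cell junctions and lies on chromosome 7 from 43427670 to 43435996 (plus strand). Its counts were 14, 16, 21 and 8 in Bbs8+/+ and 10, 18, 14 and 22 in Bbs8-/-. The corresponding levels were 6.04, 6.30, 9.82 and 2.80 CPM in controls and 6.07, 9.41, 6.43 and 10.3 CPM in knockouts. Control replicate 3 was higher than 3 of the 4 knockout libraries, so the groups overlapped. Mean Lim2 was 6.24 ± 2.87 CPM in controls and 8.05 ± 2.11 CPM in knockouts (SD, n = 4 each), with a log2 fold change of 0.40 (SE 0.378, 95% interval -0.35 to 1.15, edgeR FDR 0.734).

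Gja3 encodes connexin 46, which forms gap junctions between fibre cells, and lies on chromosome 14 from 57034460 to 57058100 (minus strand). It had 1, 0, 0 and 3 counts in Bbs8+/+ and 0 in each Bbs8-/- library. All of these are at or under the floor of 3 counts, so no fold is given and a change of Gja3 was not detectable at this depth.

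The beaded filament genes held the member closest to the threshold. Bfsp1, which encodes filensin, lies on chromosome 2 from 143826528 to 143863173 (minus strand). Its counts were 30, 9, 14 and 19 in Bbs8+/+ and 16, 32, 40 and 24 in Bbs8-/-, or 13.0, 3.54, 6.55 and 6.64 CPM against 9.72, 16.7, 18.4 and 11.2 CPM. Every knockout library was above control replicates 2, 3 and 4, while control replicate 1 was above knockout replicates 1 and 4. Mean Bfsp1 was 7.42 ± 3.96 CPM in controls and 14.0 ± 4.19 CPM in knockouts (SD, n = 4 each). The log2 fold change was 0.93 (SE 0.313, unadjusted 95% interval 0.32 to 1.55), with an unadjusted edgeR p of 0.00335 and an FDR of 0.102, which placed Bfsp1 at rank 456 of the 13813 tested genes. Without control replicate 1 the estimate was 1.33 and passed the threshold (edgeR FDR 0.0163), and over all alternatives the FDR ran from 0.0163 to 0.361. No other alternative brought Bfsp1 past the threshold.

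**Figure D2:**
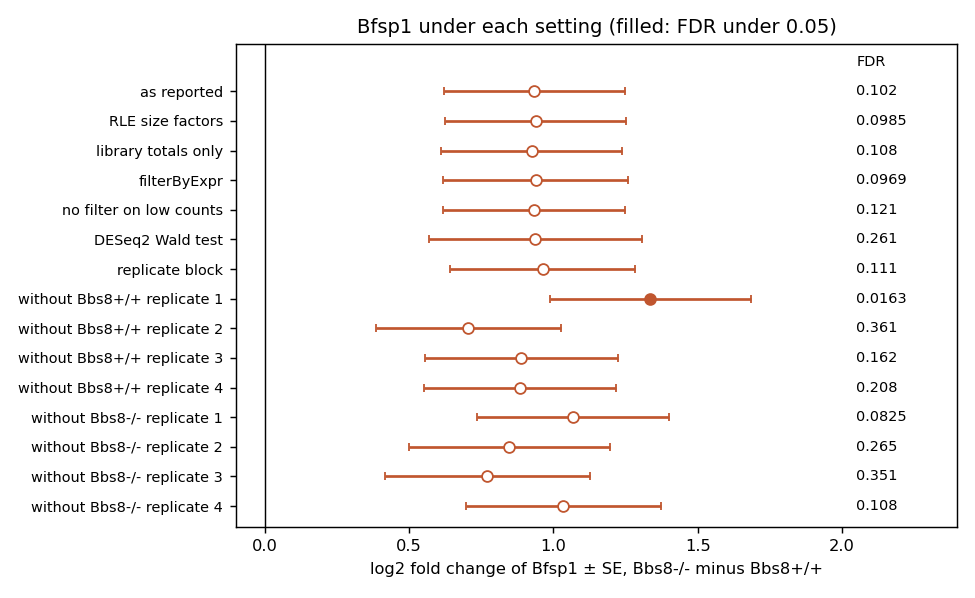
Log2 fold change of Bfsp1 (horizontal axis, Bbs8-/- minus Bbs8+/+, bars ± SE) under each processing setting, with the FDR of that setting on the right and a filled point where it is under 0.05. The estimate lies between 0.705 and 1.335 in all settings, and the fit without Bbs8+/+ replicate 1 is the one filled point.

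Bfsp2 encodes phakinin, the assembly partner of filensin, and lies on chromosome 9 from 103424924 to 103480420 (minus strand). Its counts were 16, 20, 16 and 24 in Bbs8+/+ and 14, 18, 22 and 21 in Bbs8-/-. In CPM these were 6.91, 7.88, 7.48 and 8.39 against 8.50, 9.41, 10.1 and 9.82, so that the lowest knockout library (8.50 CPM) stood just above the highest control library (8.39 CPM). Bfsp2 was the only tested member without overlap, 1 of 6, where 7.38% of all tested genes showed none. The means were 7.66 ± 0.628 and 9.46 ± 0.698 CPM (SD, n = 4 each). The SD within each genotype was small, but with 14 to 24 counts per library the fit gave a log2 fold change of 0.30 with an SE of 0.332 (95% interval -0.35 to 0.96, edgeR FDR 0.782). Of the last 300 exonic bases of Bfsp2, 59 lie under exons of 5830418P13Rik on the opposite strand, which had 2 counts in Bbs8+/+ and 8 in Bbs8-/-. The counts of both filament genes together were 46, 29, 30 and 43 in Bbs8+/+ and 30, 50, 62 and 45 in Bbs8-/-, and their summed level was 15.1 ± 3.52 and 23.5 ± 4.68 CPM.

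Lgsn encodes lengsin, a lens protein of the glutamine synthetase family without that enzyme's activity, and lies on chromosome 1 from 31176401 to 31204725 (plus strand). It had 2 counts in Bbs8+/+ replicate 4, 1 in Bbs8-/- replicate 3 and 0 in the other 6 libraries. Dnase2b encodes the lysosomal nuclease that degrades DNA in maturing fibres, and lies on chromosome 3 from 146580985 to 146615596 (minus strand). It had 1 count in Bbs8-/- replicate 3 and 0 in the other 7 libraries. Both stayed under the floor in every library, so neither presence nor change could be judged at this depth.

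The regulators were measured at low levels and did not separate by genotype. Hsf4, a heat shock factor needed for fibre cell differentiation, lies on chromosome 8 from 105269801 to 105275845 (plus strand). Its counts of 6, 2, 9 and 4 in Bbs8+/+ and 6, 0, 3 and 11 in Bbs8-/- gave 2.59, 0.788, 4.21 and 1.40 CPM against 3.65, 0, 1.38 and 5.15 CPM. The knockout libraries held both the lowest and the highest Hsf4 value. The log2 fold change was 0.21 with an SE of 0.692 (95% interval -1.16 to 1.58, edgeR FDR 0.944), and its sign turned when either Bbs8+/+ replicate 2 or Bbs8-/- replicate 4 was left out.

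Prox1, a homeodomain factor that acts in fibre elongation and is also known from lymphatic endothelium and retinal interneurons, lies on chromosome 1 from 190118035 to 190170714 (minus strand). It was read 27, 19, 17 and 11 times in Bbs8+/+ and 9, 15, 20 and 10 times in Bbs8-/-. Levels were 11.7, 7.48, 7.95 and 3.85 CPM in the controls against 5.47, 7.84, 9.19 and 4.68 CPM in the knockouts. The control range enclosed all 4 knockout libraries. Prox1 was the only tested member with an estimate below 0, at -0.16 (SE 0.373, 95% interval -0.90 to 0.58, edgeR FDR 0.916), and this turned to 0.11 without Bbs8+/+ replicate 1. Markers of the other cells known to make Prox1 were present in the libraries. The 6 lymphatic endothelial genes (5 tested, 0 called, Ccl21a at 0 in all libraries) summed to 432.2 to 481.8 CPM in control and 463.9 to 532.7 CPM in knockout libraries, most of it Pdpn, which other cell types also express. The 11 retinal interneuron genes (4 tested, 0 called, the most abundant being Tfap2b) summed to 31.9 to 39.8 CPM and 26.7 to 40.2 CPM. Their part in the level of Prox1 was not tested.

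Because single genes were low, counts were also summed over all 9 genes. The sums were 119, 90, 94 and 88 counts in Bbs8+/+ and 77, 97, 118 and 117 counts in Bbs8-/-. Normalised, they were 51.4, 35.4, 44.0 and 30.8 CPM in controls and 46.8, 50.7, 54.2 and 54.7 CPM in knockouts. Control replicate 1 was higher than Bbs8-/- replicates 1 and 2, so the summed levels overlapped. The means were 40.4 ± 9.13 and 51.6 ± 3.68 CPM (SD, n = 4 each), a log2 ratio of 0.35. No p-value is given for sums over these genes, since they were picked with results of these data known.

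By role, the membrane and junction genes Mip, Lim2 and Gja3 gave 146 counts in each genotype and 15.1 ± 3.67 against 18.6 ± 4.11 CPM. The regulators Hsf4 and Prox1 together gave 95 and 74 counts, or 9.98 ± 4.01 against 9.34 ± 1.16 CPM. The 3 genes that failed the filter gave 6 counts in Bbs8+/+ and 2 in Bbs8-/-. Left without Hsf4 and Prox1, the 7 remaining genes summed to 37.1, 27.2, 31.8 and 25.5 CPM in controls and 37.7, 42.9, 43.6 and 44.9 CPM in knockouts. These did not overlap, but the highest control and the lowest knockout library differed by less than 1.04 CPM, the smallest floor of any library, and the log2 ratio of the means was 0.48.

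In the same libraries, of 16 crystallin genes tested, 13 were called higher and 0 lower, where 1.1% of all tested genes were called higher. Log2 fold changes among those called were 1.44 to 5.06. The largest rest on low control counts, with 14 over all controls for Cryga (5.06) and 8 for Crygf (4.70). The exception in abundance was Cryab, a crystallin that many tissues express, at 162 ± 13.6 CPM in controls and 146 ± 7.38 CPM in knockouts (SD, n = 4 each, edgeR FDR 0.484). Leaving Cryab aside, the other 15 crystallins summed to 43.6, 44.5, 56.6 and 59.1 CPM in controls and 477.4, 516.2, 482.3 and 497.2 CPM in knockouts. In Bbs8+/+ the 9 fibre genes and these 15 crystallins thus stood at comparable summed levels, 40.4 ± 9.13 and 50.9 ± 8.04 CPM, whereas in Bbs8-/- they stood at 51.6 ± 3.68 and 493.3 ± 17.4 CPM. Reads with a single alignment that lay outside annotated genes also differed in share without overlap, at 42.2% to 43.4% in control and 44.1% to 44.4% in knockout libraries, and its part in these levels was not tested. QuantSeq reads mark transcript ends, so these CPM values were not divided by gene length.

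**Figure D3:**
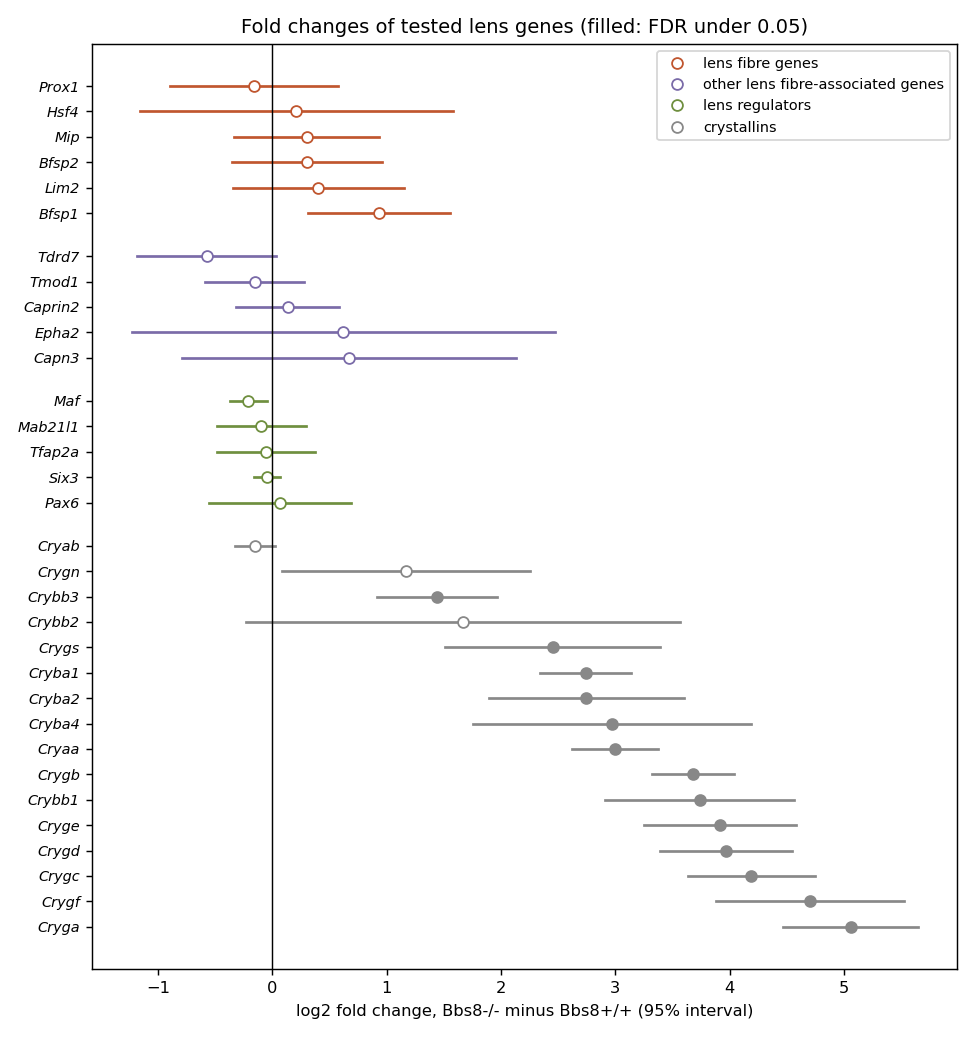
Log2 fold change (horizontal axis, Bbs8-/- minus Bbs8+/+, lines are unadjusted 95% intervals) of each tested fibre gene, other fibre-associated gene, lens regulator and crystallin, with filled points at FDR under 0.05. All filled points belong to 13 crystallins, at 1.44 and above, while the 6 fibre genes lie between -0.16 and 0.93.

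The distance between a fibre gene and a crystallin can be read within each library as a ratio of counts, which does not depend on the scaling. Mip and Cryaa had 83 counts each over the Bbs8+/+ libraries, and 82 and 531 counts over the Bbs8-/- libraries. Mip counts per Cryaa count ran from 0.708 to 1.47 in Bbs8+/+ and from 0.0859 to 0.246 in Bbs8-/-, a difference of -2.72 on the log2 scale. For Lim2 the ratio fell from between 0.333 and 1.05 to between 0.0943 and 0.186, a log2 difference of -2.53. The ratio of Bfsp1 was 0.409 to 1.76 in Bbs8+/+ and 0.151 to 0.278 in Bbs8-/- (-1.98), and that of Bfsp2 was 0.8 to 1 and 0.11 to 0.178 (-2.69). All 4 ratios were lower in every knockout library than in any control library. Because Cryaa itself was called higher, and the 4 genes and the reference were chosen after their values were seen, the ratios are a description and carry no test. The smallest change among the called crystallins, 1.44 for Crybb3, had a 95% interval of 0.91 to 1.97, which overlapped the intervals of Mip, Lim2, Bfsp1, Bfsp2 and Hsf4.

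Over all 9 genes, there were 25.6, 17.6, 21.1 and 12.8 fibre gene counts per 100 crystallin counts in Bbs8+/+ and 7.57, 7.74, 8.50 and 8.48 in Bbs8-/-. The means were 19.3 ± 5.43 and 8.07 ± 0.488 (SD, n = 4 each), a log2 ratio of -1.26. Without Cryab, which made up 1606 of the 2110 crystallin counts in Bbs8+/+ and 1153 of the 5039 in Bbs8-/-, they were 81.8 ± 27.1 and 10.5 ± 0.763, a log2 ratio of -2.97. The ratio was nearly the same in the 4 knockout libraries and varied among the controls, with the highest value in replicate 1 and the lowest in replicate 4 under both definitions.

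**Figure D4:**
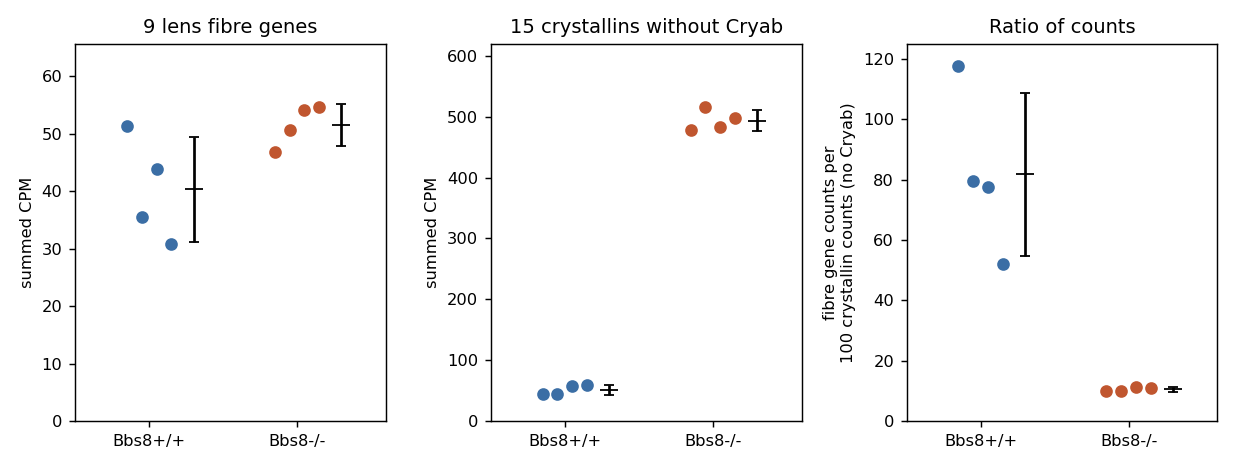
Summed level (CPM) of the 9 lens fibre genes and of the 15 crystallins other than Cryab, and fibre gene counts per 100 counts of those crystallins, in each Bbs8+/+ (blue) and Bbs8-/- (orange) library, with mean ± SD in black (n = 4 each) and all axes starting at 0. The fibre gene sums of the genotypes overlap (30.8 to 51.4 CPM in Bbs8+/+, 46.8 to 54.7 CPM in Bbs8-/-), the crystallin sums do not, and the ratio drops from 81.8 ± 27.1 to 10.5 ± 0.763.

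Among 11 further genes linked to the lens fibre, 5 were tested and 0 were called, with a median log2 fold change of 0.13 against -0.0041 over all tested genes. Tmod1, the actin-capping tropomodulin of the fibre membrane skeleton and the most abundant of them over all 8 libraries (in knockouts alone Caprin2 was slightly higher, at 19.7 CPM), stood at 21.5 ± 5.69 and 19.4 ± 3.91 CPM (SD, n = 4 each, edgeR FDR 0.842). Grifin, a lens galectin, had 7 counts in Bbs8+/+ and 8 in Bbs8-/-, and Lctl had 0 in all libraries. The summed level of the list was 50.1 to 62.6 CPM in controls and 46.8 to 58.6 CPM in knockouts. Tdrd7, an RNA granule protein required in fibre cells and expressed elsewhere too, was not called, and its lowest control library (10.36 CPM) and highest knockout library (10.33 CPM) were nearly level, with 12.1 ± 1.36 against 8.17 ± 2.19 CPM, a log2 fold change of -0.57 (SE 0.307, edgeR FDR 0.426). It was singled out after its values were seen.

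Lens regulators other than Hsf4 and Prox1 were not called either. Of 9 genes, 5 were tested, and their median log2 fold change was -0.06. The most abundant, the eye-field factor Six3, was at 546.1 ± 43.6 CPM in controls and 529 ± 35.1 CPM in knockouts (SD, n = 4 each, edgeR FDR 0.817). Maf, which encodes the large Maf factor that binds the TGCTGA element, was at 209.5 ± 6.12 and 181 ± 23.3 CPM, with an unadjusted p of 0.0109 and an FDR of 0.198 by edgeR. Foxe3, a factor of the lens epithelium, had 0 counts in all 8 libraries. The members' relatives in the same gene families, 10 genes that other tissues use, were all tested and 0 were called, with a median log2 fold change of 0.03. Glul, the glutamine synthetase of which Lgsn is a relative, had a mean of 884.5 CPM in controls and 852 CPM in knockouts, and the intermediate filament gene Vim at 513.7 and 527.5 CPM.

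Markers of other tissues of the eye moved in part with genotype in the same libraries, where 1.14% of all tested genes were called lower. Of 8 photoreceptor genes 2 were called lower, among them Gnat1 at -0.86 (edgeR FDR 0.000502), and the list summed to 461.3 to 526.3 CPM in controls and 364.8 to 410 CPM in knockouts. Of 6 genes of corneal and surface epithelium, 2 were tested and Krt15 was called lower (edgeR FDR 0.000218), with 55 counts in controls and 2 in knockouts, where each library was under the floor of 3 counts, so that no fold is given. Aldh3a1, the most abundant of them, was at 43.1 ± 3.43 and 30.4 ± 4.70 CPM (edgeR FDR 0.0805), Krt14 was at 0 in all libraries, and the summed level was 48.8 to 58.9 CPM and 26.6 to 37.7 CPM. Both sums were lower in every knockout than in any control library. Their part in the levels of the fibre genes was not tested.

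Finally, genes whose level varied like that of the fibre genes were listed as a description, over the log2(CPM + 1) values of the 8 libraries and the 9041 tested genes that averaged 10 CPM or more. Those most like Bfsp1 were Washc2, Mrtfb, Hps3, Chchd10 and Ids, with Pearson r of 0.938 to 0.947 and Spearman coefficients of 0.905 to 0.952. The summed level of all 9 genes was followed most closely by Got2, Ahr, Scaf8, Zfp706 and Ctsf, with r of 0.95 to 0.959. None of these 10 genes was called by edgeR, and over these 8 libraries, which differ in depth and genotype, 3.78% of the genes compared reached an r above 0.7 with Bfsp1 and 5.01% with the sum. Without the 2 libraries farthest from the median of each pattern, the 5 genes named for Bfsp1 had r of 0.852 to 0.985. The 5 named for the sum had 0.751 to 0.968. The 10 crystallins abundant enough to be compared had r of -0.389 to 0.754 with Bfsp1 and of -0.701 to 0.701 with the sum.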

How the data were processed

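The data were 8 QuantSeq 3′ mRNA libraries of P11 RPE eyecups, grouped by the genotype in the labels. Per the labels and methods, the authors trimmed reads with BBDuk, aligned them to mm10 with STAR, and deposited htseq-count output, that is raw counts per gene of reads with a single alignment. The strand setting is not given in the sources used here, and the study's criterion for multi-mapped reads was not applied. Each animal was a biological replicate. No molecular identifiers were named, so floors cover counting error only.

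Of 31053 identifiers, 30934 received a symbol from GENCODE M21, whose coordinates are on the same assembly (1-based). Genes reaching 1 CPM on raw totals in 4 or more libraries entered edgeR 4.0.16 in R 4.3.3 (TMM, quasi-likelihood F test, two-sided, genotype only). Benjamini-Hochberg adjustment ran over all 13813 genes, with FDR 0.05 as threshold. Reported CPM, other than floors, are counts over the TMM-scaled total of the tested genes. The SE is the log2 fold change over the square root of F. Totals ranged from 1636725 to 2884983. The script was tested on simulated data.

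The 9 genes, the marker lists and the rule for naming genes (the 9, Ttc8, called list members, each list's most abundant gene and the 5 genes most like Bfsp1 or the sum) were chosen with earlier results of these data known. Grifin, Lctl, Tdrd7, Caprin2, Maf, Foxe3, Vim, Rpe65, Best1, Ccl21a, Krt14, Gm26847 and 5830418P13Rik are named outside it, and some genes that met it are not reported here. Alternatives were RLE factors, library totals, filterByExpr, no filter, DESeq2 1.42.0, a replicate block, leaving out each library, other sums and, chosen after seeing the data, crystallins without Cryab.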

Additional observations from a re-analysis of the deposited data

How the results depend on the processing

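Of 83 alternative estimates for the 6 tested genes, 79 kept their sign and their side of the threshold. Leaving out each library in turn gave 0.705 to 1.335 for Bfsp1, with 1 member called (Bfsp1, without Bbs8+/+ replicate 1) and 0 in the other fits. Mip ran from 0.14 (without Bbs8-/- replicate 4) to 0.44 and Lim2 from 0.14 (without Bbs8+/+ replicate 4) to 0.69 (without Bbs8+/+ replicate 3). Hsf4 ran from -0.43 to 0.68, below 0 without Bbs8+/+ replicate 2 (-0.07) and without Bbs8-/- replicate 4 (-0.43), and Prox1 from -0.40 to 0.11, above 0 without Bbs8+/+ replicate 1 (0.11). Hsf4 failed the filterByExpr filter and has no value there. DESeq2 called 104 genes lower. The log2 ratio of the sums was 0.24 to 0.49 over the fits without 1 library, and -1.25 when only the genes under the filter were summed, which rests on 8 counts in all. Against crystallins without Cryab, chosen after seeing the data, the log2 ratio was -2.97. The cause of these shifts was not tested. Crystallins called numbered 12 by DESeq2 and 13 in every other fit. With the replicate number as a block (replicate block), Bfsp1 was 0.96 (edgeR FDR 0.111), 0 members were called, and 134 genes were higher and 129 lower. Deviations of same-numbered libraries correlated at -0.029 to 0.019 over 9042 genes, so the numbers were not treated as pairs. Depth limits Gja3, Lgsn and Dnase2b, which stayed at or under 3 counts in every library.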
